A study of Mus musculus with 12 samples.

Results

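The comparison described here is the EYFP sort itself, in wild-type and ER71 mutant mouse embryos. It sets cells positive for the yellow fluorescent reporter EYFP against cells negative for it. ER71 is the older name of Etv2. All 12 arrays of the series enter it, 6 of EYFP positive and 6 of EYFP negative cells, with genotype as a covariate. The 4 groups, with 3 arrays each, were wild-type positive, wild-type negative, ER71 mutant positive and ER71 mutant negative. All came from embryonic day 8.0 embryos of an ER71 EYFP line on a mixed C57BL/6 and FVB background, so the reporter line is shared by controls and mutants. Trypsin freed the cells, a BD FACSAria sorter separated them, and the RNA of every array was amplified 2 times before hybridization. The labels do not name the sequence that drives EYFP, the part of ER71 that is altered, or the number of embryos behind an array. The p-values therefore measure the spread between these arrays, which may be partly technical. Values are log2 expression, and a difference is positive minus negative cells on that scale. Of 18193 genes, 387 passed the test in the same direction in both genotypes (2.13% of all genes, with 171 higher and 216 lower in positive cells). These shared genes are the subject of the text.

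Etv2 is an ETS-family transcription factor that is switched on briefly in mesoderm and is required for the endothelial and blood lineages. At this stage the embryo holds mesoderm that is migrating and secreting matrix, next to epithelia such as the neural plate, surface ectoderm and gut endoderm. Mesoderm lowers E-cadherin and raises vimentin and fibronectin when it leaves the epiblast, and nascent vascular mesoderm carries the VEGF receptor Kdr. In a positive and negative sort, a gene can differ because the cells carry more of its RNA or because more cells of a type are in the fraction, and in bulk samples these cannot be told apart.

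Etv2 RNA itself lay at 10.72, 10.70 and 11.36 on the wild-type positive arrays and at 7.5 to 7.85 on the wild-type negative arrays. On the mutant arrays it lay at 7.26 to 7.40 in positive cells and at 7.24 to 7.49 in negative cells. Only the wild-type positive arrays were high. The difference was 3.28 ± 0.17 (SE) in wild types and -0.07 ± 0.17 in mutants, and over both genotypes it missed the threshold (1.61 ± 0.50, limma, adjusted p = 0.0749). Since the altered part of the gene is not given, this probe set may or may not lie in it.

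Some arrays stood apart. On both wild-type arrays numbered 1 Xist, which is made from an inactive X, was low (10.33 and 8.19 against 13.36 to 13.98 on the other 10 arrays), and Y-linked Eif2s3y was high (10.81 and 11.23 against 4.11 to 4.53). The mutant positive array numbered 1 carried yolk sac endoderm transcripts that the other mutant positive arrays lacked: Afp was 11.98 there and 5.02 and 4.03 on the other mutant positive arrays, and Ttr was 12.21 against 5.58 and 5.79. That array was also the highest of them for the neural plate and neural tube list read below (mean level 7.72 against 7.36 and 7.25). For the somite and paraxial mesoderm list it was not (7.70 against 7.77 and 7.48). Over genes it correlated at 0.985 with the mutant negative array numbered 1, against 0.977 and 0.979 for the mutant pairs numbered 2 and 3. The 3′ minus 5′ signal of the actin control probe sets, a sign of RNA integrity, was 3.05 and 3.14 on both wild-type arrays numbered 1 and 1.54 to 2.62 on the other wild-type arrays. In mutants it was 1.40 to 1.62 in positive and 1.87 to 2.72 in negative cells, so there it moved with the sort, and its part in the mutant differences was not tested. Arrays of the same group correlated at 0.986 to 0.993 over genes and arrays of different groups at 0.957 to 0.993. Mutant positive arrays correlated at 0.965 to 0.974 with wild-type positive arrays and at 0.976 to 0.982 with wild-type negative arrays.

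The 6 markers of the sort all separated positive from negative cells in both genotypes. Kdr, a receptor for VEGF, was at 12.57, 12.13 and 12.28 in the positive cells of wild types and at 9.08, 9.17 and 9.24 in their negative cells. In mutants it was at 11.48, 11.72 and 12.17 in positive cells and at 9.19, 9.23 and 9.24 in negative cells. Its 6 positive arrays all lay above its 6 negative arrays. The difference was 3.17 ± 0.16 in wild types (8.97-fold) and 2.57 ± 0.16 in mutants (5.95-fold), and 2.87 ± 0.14 over both (adjusted p = 2.47e-06). The mutant difference minus the wild-type difference had a 95% interval of -1.1 to -0.08, and its adjusted p was 0.294.

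Aplnr, the apelin receptor of early mesoderm and vessels, lay between 13.25 and 14.03 on the positive arrays (median 13.76) and between 12.08 and 12.77 on the negative arrays (median 12.29). It rose 2.92-fold in wild types and 2.27-fold in mutants (1.36 ± 0.13 over both, adjusted p = 8.17e-05). Tek, the angiopoietin receptor Tie2, was at 11.65, 11.33 and 11.27 in wild-type positive, 6.82, 7.41 and 6.66 in wild-type negative, 10.15, 9.80 and 9.03 in mutant positive and 7.75, 7.80 and 7.31 in mutant negative cells. Its rise remained in mutants but was smaller: 4.46 ± 0.28 in wild types (21.9-fold) against 2.04 ± 0.28 in mutants (4.11-fold), with an interval of -3.27 to -1.56 for the difference between them (adjusted p = 0.00589).

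Cdh1, which encodes E-cadherin of epithelial junctions, was at 6.12, 5.95 and 6.61 in the positive cells of wild types and at 10.86, 10.96 and 10.45 in their negative cells. Mutants had 7.74, 5.61 and 5.68 in positive and 10.44, 10.51 and 9.70 in negative cells. The mutant positive array with yolk sac transcripts was the highest of the 6 positive arrays and was still below all negative arrays. Cdh1 was 23.1-fold lower in wild types and 14.7-fold lower in mutants (-4.20 ± 0.34 over both, adjusted p = 2.55e-05).

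Sox2, a transcription factor of neural progenitors, lay between 7.09 and 10.34 on the positive arrays (median 9.13) and between 11.98 and 12.49 on the negative arrays (median 12.37). The fall was -2.45 ± 0.57 in wild types and -4.21 ± 0.57 in mutants. Leaving out wild-type positive array 1, or wild-type negative array 1, 2 or 3, ended the call in wild types (adjusted p 0.0552 to 0.0774), and without both wild-type arrays numbered 1 the difference was -1.78 (adjusted p = 0.193). Pax6, a neural tube and eye factor, fell to a like degree in both genotypes on the probe set kept (-2.65 ± 0.23 and -2.55 ± 0.23). Its interval for the difference between genotypes ran from -0.59 to 0.80. Of the 5 Pax6 probe sets 4 had this sign and 2 passed the test. The other one that passed differed by -0.32 in wild types and by -1.47 in mutants.

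**Figure D1:**
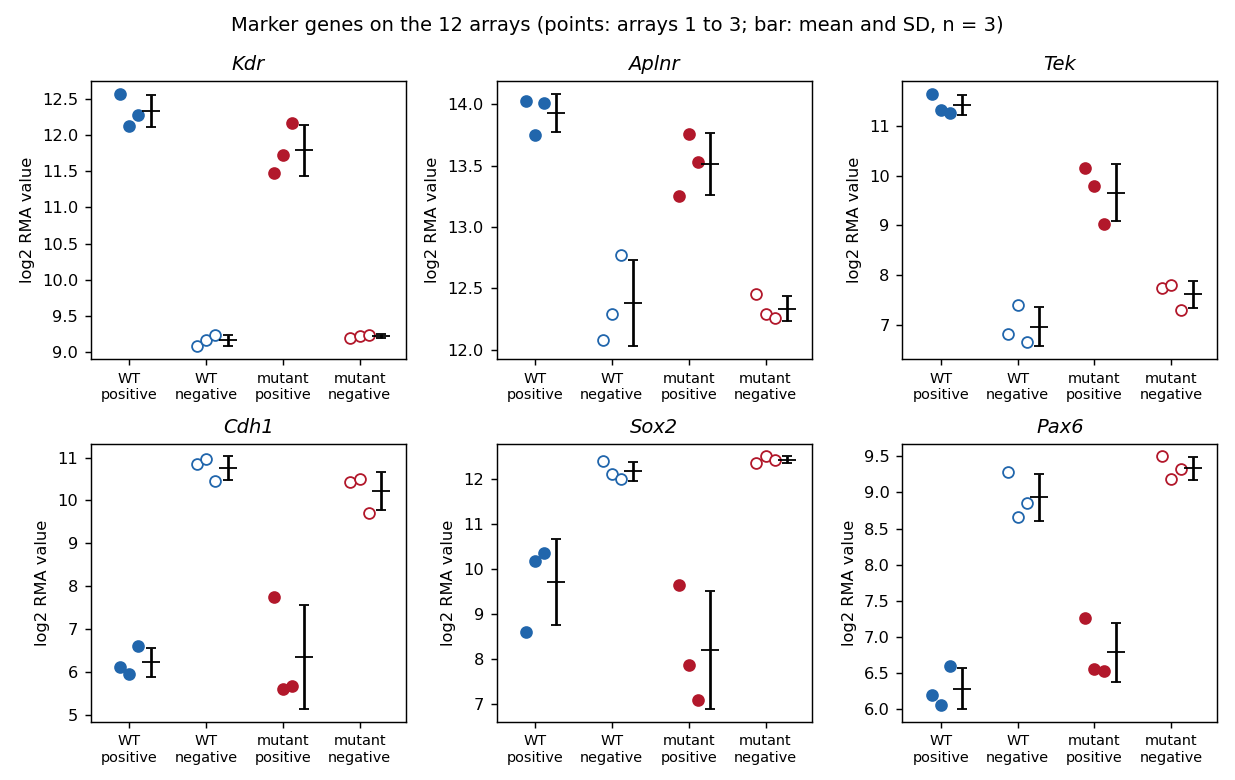
Log2 expression of the 6 sort markers on each of the 12 arrays (y axis), in 4 groups of 3, with a point per array and a bar for the mean and SD of each group. Kdr, Aplnr and Tek lie higher in positive than in negative cells of both genotypes and Sox2, Cdh1 and Pax6 lie lower, with no overlap between the 6 positive and the 6 negative arrays.

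The promoter of Kdr is shown beside that of Tek because both receptor genes also rose in mutants, Tek less than in wild types. The ETS family of Etv2 binds DNA with a GGAA core, and binding to these windows was not tested. Those of Epcam and Spint2 are shown as examples of epithelial genes that fell in both genotypes, Epcam with the larger fall and Spint2 with nearly the same fall in each. Sequences are from RefSeq on GRCm38.p6, from 250 bases before to 50 after the gene's start, 5′ to 3′ in the direction of the gene. Capitals mark GGAA or its reverse complement TTCC in Kdr and Tek, and CANNTG, the E-box, in Epcam and Spint2. The windows are chr5:75978406-75978705 on the minus strand for Kdr, chr4:94739039-94739338 on the plus strand for Tek, chr17:87635729-87636028 on the plus strand for Epcam and chr7:29281928-29282227 on the minus strand for Spint2.
Kdr: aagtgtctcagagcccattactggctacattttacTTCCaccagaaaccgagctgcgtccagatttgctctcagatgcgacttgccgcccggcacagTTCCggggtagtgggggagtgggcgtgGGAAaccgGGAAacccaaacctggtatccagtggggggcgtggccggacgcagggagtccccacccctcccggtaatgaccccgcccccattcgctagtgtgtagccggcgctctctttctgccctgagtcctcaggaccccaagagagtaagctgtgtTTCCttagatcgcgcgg
Tek: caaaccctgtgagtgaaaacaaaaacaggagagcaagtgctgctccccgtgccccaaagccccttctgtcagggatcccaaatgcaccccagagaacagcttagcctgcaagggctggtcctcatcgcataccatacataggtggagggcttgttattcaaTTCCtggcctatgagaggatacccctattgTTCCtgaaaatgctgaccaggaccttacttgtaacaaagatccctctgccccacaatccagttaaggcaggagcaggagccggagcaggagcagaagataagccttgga
Epcam: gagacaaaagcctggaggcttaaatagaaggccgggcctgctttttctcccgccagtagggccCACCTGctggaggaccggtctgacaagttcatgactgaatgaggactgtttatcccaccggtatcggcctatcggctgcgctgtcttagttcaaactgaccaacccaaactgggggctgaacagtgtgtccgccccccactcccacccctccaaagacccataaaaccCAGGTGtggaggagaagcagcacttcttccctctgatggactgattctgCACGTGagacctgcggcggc
Spint2: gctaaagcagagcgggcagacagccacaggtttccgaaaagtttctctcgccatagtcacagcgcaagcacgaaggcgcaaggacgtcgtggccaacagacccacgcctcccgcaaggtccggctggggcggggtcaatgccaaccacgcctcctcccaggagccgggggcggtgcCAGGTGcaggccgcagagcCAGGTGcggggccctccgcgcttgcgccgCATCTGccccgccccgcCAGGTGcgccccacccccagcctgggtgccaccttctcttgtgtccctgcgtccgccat
The Kdr window holds 5 matches to GGAA and the Tek window holds 2, while the Epcam window holds 3 E-boxes and the Spint2 window 4.

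Over all genes, the fit with genotype as a covariate called 740 genes higher in positive cells (4.07% of 18193) and 758 lower (4.17%), at an adjusted p under 0.05. All 1498 (8.23%) had the same sign in both genotypes, but for 748 of them the difference passed the test in 1 genotype alone, and for 363 in neither. Over all genes, 56.6% had the same sign in both. This fit leaves differences between genotypes in its residual, which favours genes of the same sign: the mean of both differences in the 4-group fit called 1100 higher and 912 lower, of which 946 and 886 had the same sign in both genotypes. The stricter reading requires a call in both genotypes. In wild types 843 genes were higher (4.63%) and 656 lower (3.61%), together 8.24%, and in mutants 558 were higher (3.07%) and 417 lower (2.29%), together 5.36%. The genes called in both and higher numbered 171 (0.94% of all genes), which is 20.3% of the wild-type calls and 30.6% of the mutant calls. Those called in both and lower numbered 216 (1.19%), which is 32.9% and 51.8%. A further 19 genes (0.104%) were called in opposite directions.

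Leaving out single arrays moved the 171 to between 129 and 166 and the 216 to between 161 and 222. Without both wild-type arrays numbered 1 the counts were 99 and 120. Among the named shared genes, leaving out that pair ended the wild-type call of Sox2, Sox1, Eras, Pcdh8, Colec11, Cavin2, Pitx1, Zfpm2, Bmp2, Smad6, Hes7, Mixl1, Fgf3, Fgf15, Egr2 and Klf6 (adjusted p 0.0572 to 0.327). Leaving out both mutant arrays numbered 1 gave 121 and 173, and ended the mutant call of Tmem204, Cd34, Plxnd1, Cdx1, Fzd3, Egr1 and Cavin2 (0.0688 to 0.15) and the wild-type call of Fgf3 and Cavin2 (0.0539 and 0.0554). Same-numbered positive and negative arrays deviated together, and with the number as a block within genotype the counts were 301 and 325, of which 165 and 210 were among the 171 and 216. The block also gave 1041 lower genes in wild types, 872 higher genes in mutants and 44 genes of opposite direction. Without regard to genotype, the 6 positive arrays lay wholly above the 6 negative arrays for 370 genes (2.03%) and wholly below for 462 (2.54%), together 4.57%. At the edge of the set, Dab2, Igf2r, Nudt9 and Pcdh8 had a larger adjusted p of 0.0499 in the 2 genotypes. Just outside it, Hoxb5 (adjusted p 0.0479 in wild types and 0.0505 in mutants) and Fgd4 (0.0115 and 0.0506) were left out.

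**Figure D2:**
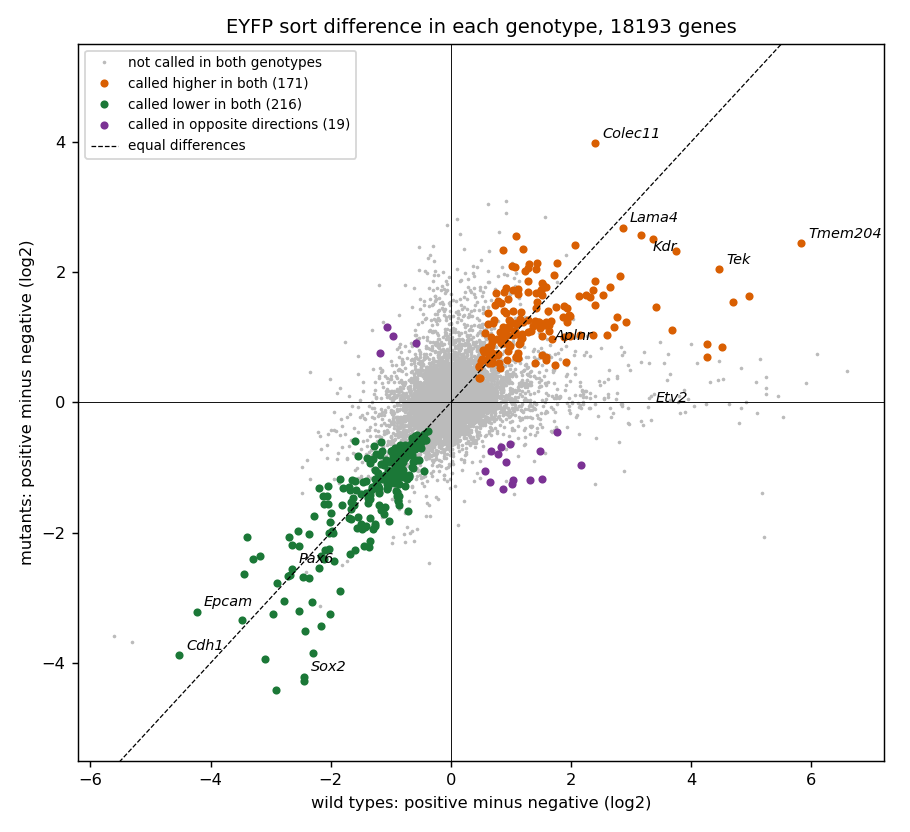
Difference between positive and negative cells in wild types (x axis, log2) against that in mutants (y axis, log2) for all 18193 genes, with the 171 shared rises, the 216 shared falls and the 19 genes of opposite direction coloured and a dashed line for equal differences. Kdr, Tek, Cdh1 and Sox2 lie in the quadrants where both genotypes have the same sign.

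The 12 largest shared rises were taken among genes whose 6 positive and 6 negative arrays do not overlap, with clone-type names left out. They include vascular receptors, basement membrane components and a collectin. Tmem204, a membrane protein of vascular cells, was at 10.22 to 10.26 in the positive cells of wild types and at 3.77 to 4.99 in their negative cells. In mutants it was at 7.86, 7.27 and 5.71 in positive cells and at 4.25 to 4.90 in negative cells. The 6 negative arrays lay below the 25th percentile of all values (5.65), so the folds start from dim values and their size is uncertain. It rose 56.7-fold in wild types and 5.44-fold in mutants; the mutant call was lost without both mutant arrays numbered 1 (adjusted p = 0.0796). Tnfaip2 rose 31.2-fold and 3.12-fold, Plvap, which encodes the protein of endothelial diaphragms, 25.9-fold and 2.91-fold, and Cebpd, a C/EBP transcription factor, 13.4-fold and 5.01-fold. Of the 3 Tnfaip2 probe sets 1 passed the test over both genotypes, and the others differed by 0.26 and -0.07. Of the 2 Cebpd probe sets 1 passed, and the other differed by 0.22. Ppp1r13b rose 10.6-fold and 2.77-fold. For all 5 genes the rise was smaller in mutants by the test of the difference itself (adjusted p between 1.02e-05 and 0.0189), and no mutant positive array reached the level of a wild-type positive array.

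Nid1 and Lama4 encode basement membrane proteins. Nid1, the nidogen gene, was at 12.14, 11.90 and 12.16 in wild-type positive, 8.16, 9.20 and 8.75 in wild-type negative, 10.55, 10.75 and 11.02 in mutant positive and 8.36, 7.96 and 8.50 in mutant negative cells. It rose 10.3-fold and 5.67-fold, with an interval of -1.59 to -0.13 for the difference (adjusted p = 0.293). Lama4, a laminin chain of vessel basement membrane, was at 9.57, 10.01 and 8.96 in wild-type positive and 9.69, 8.91 and 10.17 in mutant positive cells, against 6.4 to 7.09 on all negative arrays. Its rise was 7.27-fold in wild types and 6.42-fold in mutants, so the positive cells of the 2 genotypes overlapped in level.

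Colec11, a secreted collectin, rose 5.27-fold in wild types and 15.8-fold in mutants. The difference between genotypes had an interval of -0.11 to 3.28 and did not pass the test (limma, adjusted p = 0.452). In wild types it missed the threshold once positive array 1 or 2 or negative array 1 or 3 was left out (adjusted p 0.054 to 0.0833), or both arrays numbered 1 (0.169). Cd34, a sialomucin of endothelium and blood progenitors, and Plxnd1, a semaphorin receptor of vessels, entered the set by a narrow margin in mutants. Cd34 was at 7.35, 6.43 and 6.89 in mutant positive and 6.21, 5.97 and 5.93 in mutant negative cells, against 10.22 to 10.58 in wild-type positive cells. Its mutant difference of 0.85 ± 0.22 (adjusted p = 0.0427) missed the threshold without wild-type positive array 2 or 3, wild-type negative array 3, mutant positive array 1 or 3, or mutant negative array 1, 2 or 3 (0.0501 to 0.135). Its call over both genotypes ended without both wild-type arrays numbered 1 (adjusted p = 0.0569). The mutant difference of Plxnd1, 0.90 ± 0.23 (adjusted p = 0.0474), did so without wild-type positive array 3, any wild-type negative array, mutant positive array 1 or 2, or mutant negative array 1 or 3 (0.0599 to 0.17).

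The 12 largest shared falls were taken by the same rule, so the separation of their arrays was fixed by the choice. They were Cdh1, Epcam, Sox1, Sp8, Cldn9, Hes5, Sox2, Rfx4, Eras, Tfap2c, Pcdh8 and Cldn7. Epcam, an epithelial adhesion molecule, was at 6.05, 7.24 and 7.91 in the positive cells of wild types and at 11.40, 11.23 and 11.27 in their negative cells. In mutants it was at 8.23, 7.05 and 7.44 in positive and 11.10, 10.95 and 10.29 in negative cells. It was 18.8-fold lower in wild types and 9.25-fold lower in mutants. The claudin genes Cldn9 and Cldn7, which encode tight junction strands, fell by 11.1-fold and 9.79-fold in wild types and by 10.1-fold and 5.27-fold in mutants. Cldn9 lay between 4.76 and 5.78 on the positive arrays and between 7.70 and 9.08 on the negative arrays. Of its 2 probe sets 1 passed the test over both genotypes.

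Neural members of the 12 fell further in mutants in the point estimates, though none of their differences between genotypes passed the test. Sox1, a neural plate factor, was 7.5-fold lower in wild types and 21.3-fold lower in mutants, with an interval of -3.37 to 0.36. Its wild-type difference was -2.12 without both wild-type arrays numbered 1 (adjusted p = 0.122). Hes5, a Notch target of neural progenitors, was at 10.01, 10.34 and 8.93 in wild-type positive and 8.34, 7.75 and 6.77 in mutant positive cells, against 11.56 to 12.56 on the negative arrays. Its interval was -3.15 to -0.53, with an adjusted p of 0.178. Rfx4, a factor of the neural tube, was 4.91-fold and 14.3-fold lower (interval -2.76 to -0.33, adjusted p = 0.237). For Sox1 and for Rfx4, 1 of 2 probe sets passed the test over both genotypes. Sp8, a zinc finger factor of the forebrain and limb, was 8.49-fold and 15.4-fold lower.

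Tfap2c, an AP-2 factor of surface ectoderm, trophoblast and germ cells, was 6.80-fold lower in wild types and 8.29-fold lower in mutants. Its 6 positive arrays lay between 6.14 and 7.27 and its 6 negative arrays between 9.34 and 9.93. Eras, a Ras-like gene of pluripotent cells, and Pcdh8, a protocadherin of paraxial mesoderm and brain, lost calls when single arrays were left out, as Sox2 did. Eras was 5.36-fold lower in wild types (adjusted p = 0.034), and leaving out positive array 1 or any of the 3 negative arrays of that genotype ended the call (0.05 to 0.118). Leaving out both arrays numbered 1 gave a wild-type difference of -1.57. Pcdh8 fell by 2.53 in wild types and by 3.20 in mutants, and its wild-type difference was -1.66 without wild-type positive array 1 (adjusted p = 0.134). The call in wild types also ended on leaving out positive array 3 or any negative array of that genotype, mutant positive array 2 or any mutant negative array (0.0539 to 0.167). The call in mutants ended without mutant positive array 2 or 3 or any mutant negative array (0.0619 to 0.0747).

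**Figure D3:**
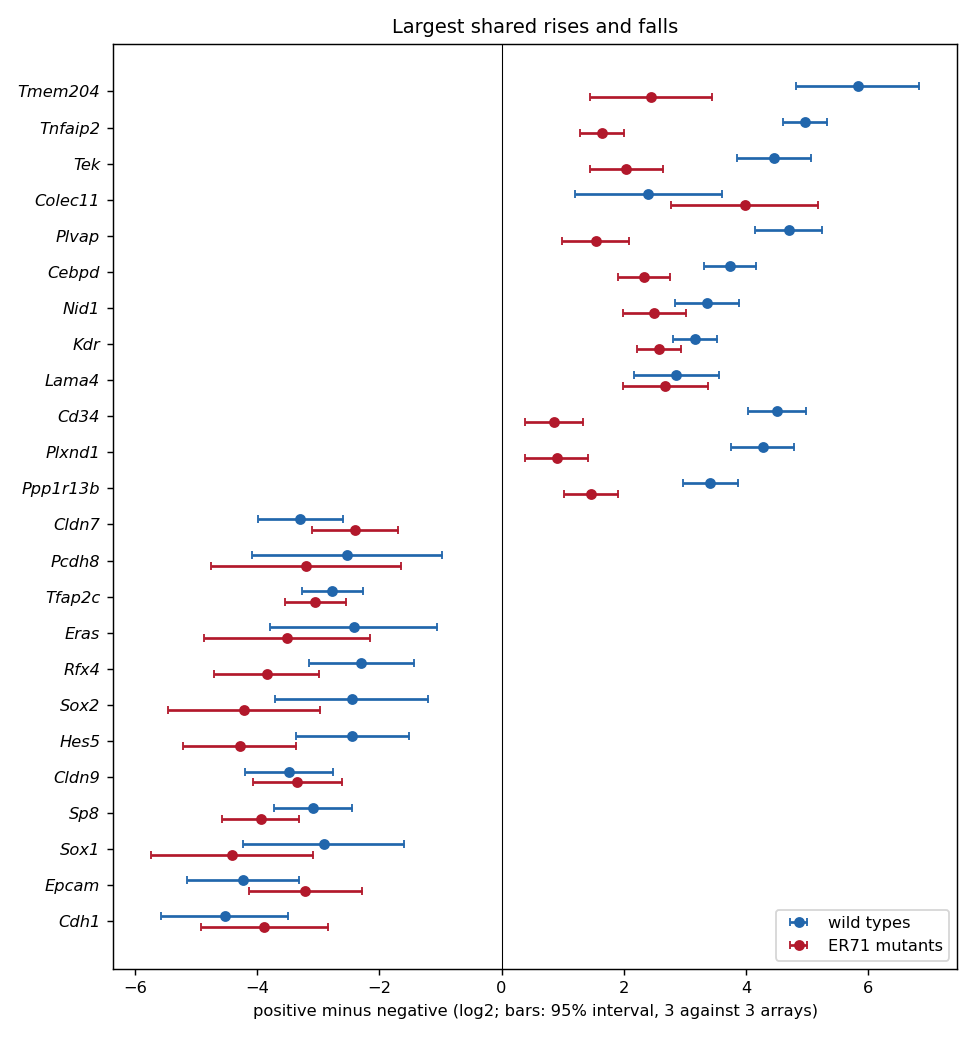
Difference between positive and negative cells in wild types and in mutants (x axis, log2, bars are 95% intervals) for the 12 largest shared rises and the 12 largest shared falls. The wild-type points of Tmem204, Tnfaip2, Plvap, Cd34 and Plxnd1 lie far above their mutant points, while both points of Lama4 and Cldn9 nearly coincide.

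The members were then read by gene group. For the counts below, the shares over all genes were 0.94% higher and 1.19% lower in both genotypes. They were 4.63% and 3.61% in wild types, 3.07% and 2.29% in mutants, and 4.07% and 4.17% in the fit over both genotypes. The difference between genotypes passed the test for 2.58% of all genes. Among 18 vascular and mesodermal receptors, 5 were called higher in both genotypes and 0 lower, and the median difference was 1.22 in wild types and 0.42 in mutants, against -0.02 and -0.03 over all genes. The 5 were Kdr, Tek, Aplnr, Nrp1 and Ednrb. Nrp1, a co-receptor for VEGF and semaphorins, lay between 12.42 and 13.03 on the positive arrays and between 10.86 and 11.63 on the negative arrays, and rose 2.18-fold in wild types and 3.18-fold in mutants. Ednrb, the endothelin receptor B, differed by 0.92 and 1.37. The difference between genotypes passed the test in the wild-type direction for 8 of the 18 receptors.

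Of 20 mesenchymal matrix and adhesion genes, 8 rose in both genotypes and 0 fell, with medians of 0.77 in wild types and 1.06 in mutants. Without both wild-type arrays numbered 1 the count was 5. They were Nid1, Lama4, Sparc, Vim, Fn1, Col5a2, Lamb1 and Itgb1. Sparc, a matrix glycoprotein, was at 12.30, 12.28 and 12.59 in wild-type positive, 10.73, 11.18 and 10.89 in wild-type negative, 12.14, 12.24 and 12.44 in mutant positive and 11.13, 10.62 and 11.34 in mutant negative cells. It rose 2.75-fold and 2.36-fold. Vim, the mesenchymal intermediate filament, differed by 1.88 and 1.48, and Fn1, fibronectin, by 0.88 and 1.11. The difference between genotypes passed the test for 1 of the 20 genes, and for 0 without any of several single arrays (wild-type positive 2 or 3, wild-type negative 2 or 3, mutant positive 2, mutant negative 2 or 3). It passed for 3 with the replicate block, without wild-type positive array 1, and without both wild-type arrays numbered 1.

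Of 14 cardiac regulators, 5 rose in both genotypes and 0 fell. The 5 were Zfpm1, Zfpm2, Mef2c, Hopx and Bmp2. Zfpm1 and Zfpm2, GATA cofactors, rose 2.98-fold and 2.68-fold in wild types and 2.34-fold and 4.15-fold in mutants. For each of them 1 of 2 probe sets passed the test over both genotypes, and the other differed by 0.33 (Zfpm1) and 0.20 (Zfpm2). Mef2c, a MADS-box factor of heart and vessels, lay between 10.60 and 11.38 on the positive arrays and between 8.95 and 10.06 on the negative arrays. It rose 2.05-fold in wild types and 3.29-fold in mutants, and all 5 of its probe sets passed the test. Bmp2, a ligand of the heart field and yolk sac mesoderm, rose 2.72-fold and 2.91-fold. Over the whole list the median was 0.00 in wild types and 1.53 in mutants. The difference between genotypes passed the test for 8 of the 14, all with the mutant value above the wild-type value. Those 8 were 4 or 5 without wild-type negative array 2 or 3 or mutant negative array 2. Without both wild-type arrays numbered 1, 3 of the 14 were called in both, and the wild-type call of Bmp2 was lost (adjusted p = 0.0621).

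In the lateral plate, allantois and extraembryonic mesoderm list of 18 genes, Pitx1 and Pmp22 rose in both genotypes, and the count was 4 with the replicate block and 1 without both wild-type arrays numbered 1. By genotype, 2 of the 18 rose and 3 fell in wild types (median 0.14), and 13 rose and 0 fell in mutants (median 1.70). The difference between genotypes passed the test for 12, all with the mutant value above the wild-type value. Those 12 were 5 to 7 without wild-type positive array 2, any wild-type negative array or mutant negative array 3. Pmp22, a membrane protein, was 3.28-fold and 3.88-fold higher, with positive arrays between 11.88 and 12.62 and negative arrays between 9.74 and 10.80. Pitx1, a homeobox factor of hindlimb and lateral plate, was 1 of those 12: 2.11-fold in wild types and 5.91-fold in mutants (interval 0.82 to 2.15, adjusted p = 0.0248). It was at 8.39 to 8.64 in wild-type positive cells and at 9.40, 9.80 and 10.44 in mutant positive cells. With all Pitx1 probe sets averaged, its wild-type call was lost (0.74, adjusted p = 0.0577), as it was without both wild-type arrays numbered 1 (1.00, 0.101).

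On the falling side, 12 of 22 epithelial junction and surface genes were lower in both genotypes and 0 higher, with medians of -1.06 in wild types and -1.05 in mutants. In mutants 1 of the 22 was called higher, and 2 with the replicate block. The difference between genotypes passed the test for 1, in the direction of mutants. It passed for 3 with the replicate block and for 0 without any single wild-type array. Spint2, an inhibitor of epithelial serine proteases, was at 9.17, 9.75 and 9.90 in wild-type positive, 11.42, 11.91 and 11.59 in wild-type negative, 9.92, 9.51 and 9.23 in mutant positive and 11.74, 11.72 and 11.19 in mutant negative cells. Its fall was 4.09-fold in wild types and 4.0-fold in mutants. Its partner protease genes Prss8 and St14 fell as well, by 1.66 and 1.26 in wild types and by 1.53 and 1.04 in mutants, and so did Esrp1, a regulator of epithelial splicing, by 2.17 and 2.36. The keratin genes Krt8, Krt18 and Krt19 were not called over both genotypes. The mutant positive array with yolk sac transcripts had the highest mean level of the list among mutant positive arrays (7.72 against 7.29 and 7.28); its part in the result was not tested beyond leaving it out.

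Neural plate and neural tube factors gave 13 shared falls and 0 rises among 24 genes, with medians of -1.34 and -1.32. Without both wild-type arrays numbered 1, the count was 7. Crabp2, a retinoic acid binding protein, was at 9.26, 9.49 and 9.92 in wild-type positive and 12.05, 12.17 and 12.54 in wild-type negative cells, and at 10.75, 9.94 and 10.72 against 12.84, 12.38 and 12.40 in mutants. It was 6.48-fold and 4.19-fold lower. Zic5, a zinc finger factor of the dorsal neural tube, was 3.95-fold and 3.90-fold lower, with positive arrays between 6.86 and 8.05 and negative arrays between 9.25 and 9.81. The 3 SoxB1 genes Sox1, Sox2 and Sox3 all fell in both genotypes, Sox3 by 1.42 and 1.89.

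Neural crest genes split in direction. Of 13, 4 fell in both genotypes (Tfap2a, Tfap2b, Pax3 and Erbb3) and Ednrb rose. Pax3, a factor of the dorsal neural tube, crest and somite, lay between 7.66 and 8.39 on the positive arrays and between 9.94 and 10.59 on the negative arrays, and was 4.09-fold and 4.75-fold lower. Erbb3, a neuregulin receptor, was 3.19-fold and 3.09-fold lower, with an interval of -0.41 to 0.50 for the difference between genotypes. Of the 2 Erbb3 probe sets 1 passed the test over both genotypes. Tfap2b was 2.80-fold and 3.64-fold lower.

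The next list held genes of the segmenting mesoderm. Of 20 somite and paraxial mesoderm genes, 5 were lower in both genotypes and 0 higher: Tbx6, Dll1, Dll3, Lfng and Hes7. Another 7 were lower over both genotypes without a call in each, and 8 were not called. Dll1, a Notch ligand of presomitic mesoderm and neural tube, was at 8.50, 8.31 and 8.77 in wild-type positive, 9.78, 9.71 and 10.19 in wild-type negative, 7.90, 7.68 and 8.12 in mutant positive and 10.13, 10.16 and 10.08 in mutant negative cells. It was 2.58-fold and 4.67-fold lower (interval -1.35 to -0.36, adjusted p = 0.0849). Hes7, the oscillating repressor of the segmentation clock, was 1.84-fold and 2.84-fold lower. Without both wild-type arrays numbered 1, 3 of the 20 were called in both.

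Among 15 primitive streak and tail bud genes, Mixl1, Wnt5b, Evx1, Cdx1 and Cdx4 were lower in both genotypes and 0 were higher. The count was 8 with the replicate block and 2 without both wild-type arrays numbered 1. Mixl1, a homeobox factor of the streak, was 2.03-fold and 2.08-fold lower, and Cdx1, a posterior homeobox factor, 3.5-fold and 2.96-fold lower. Wnt5b, a Wnt ligand, was 4.18-fold and 2.71-fold lower, with positive arrays between 8.01 and 9.11 and negative arrays between 9.91 and 10.78.

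Endoderm genes were read in 2 lists. Of 12 definitive endoderm and foregut genes, Foxa1, Shh, Cer1 and Nepn were lower in both genotypes and 0 were higher. By genotype, 5 of the 12 were lower and 2 higher in wild types, and 6 were lower and 0 higher in mutants. The difference between genotypes passed the test for 2, with the mutant value below the wild-type value. Foxa1, a forkhead factor of endoderm, was 6.23-fold and 4.58-fold lower. Shh, the hedgehog ligand of notochord, floor plate and gut, was at 7.51, 8.79 and 9.54 in wild-type positive and 9.13, 7.51 and 7.69 in mutant positive cells, against 10.59 to 11.44 on the negative arrays. Its fall was 6.43-fold and 6.27-fold, and 1 of its 2 probe sets had this sign.

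None of 15 visceral and yolk sac endoderm genes was called in both genotypes by limma at an adjusted p under 0.05, although 6 were lower over both. Without the mutant positive array numbered 1, 6 of the 15 were called lower in both. Ttr, the thyroid hormone and retinol carrier protein, lay between 10.83 and 11.85 on the negative arrays and between 5.14 and 6.74 on 5 of the 6 positive arrays, with the remaining one at 12.21. The mean level of the list was 6.05 to 6.19 in wild-type positive and 7.24 to 7.66 in wild-type negative cells, and 8.32, 6.31 and 6.19 in mutant positive against 7.64 to 7.77 in mutant negative cells.

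**Figure D4:**
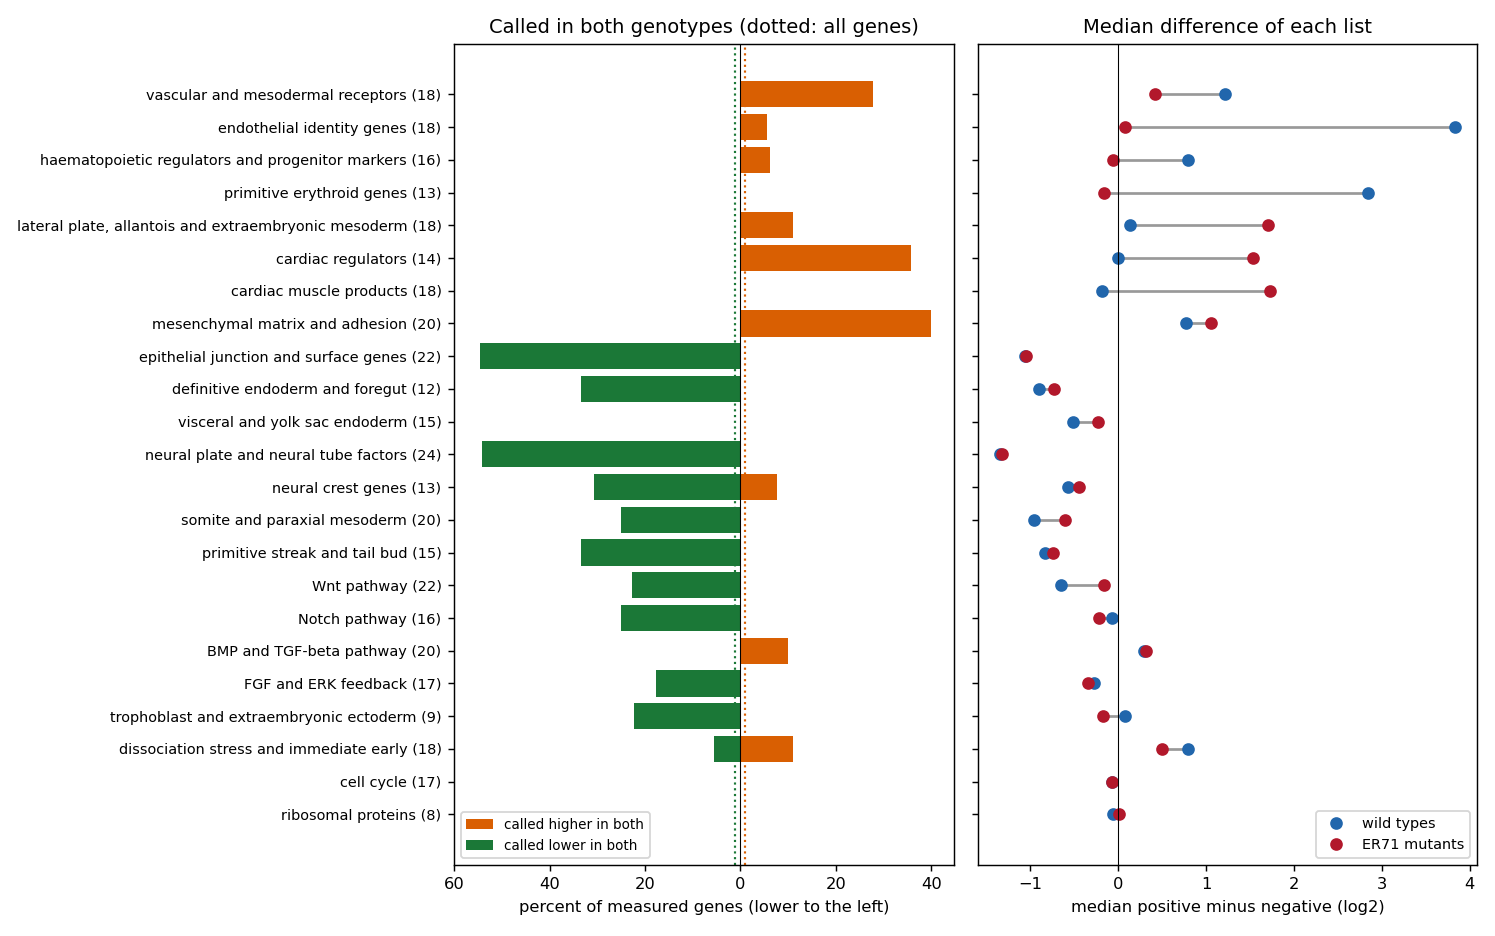
Left, the percent of each gene list's measured members (number in brackets) called higher or lower in both genotypes, with dotted lines for all genes; right, the list's median difference in wild types and in mutants (log2). Matrix medians (0.77 and 1.06) lie above 0 and epithelial (-1.06 and -1.05) and neural medians (-1.34 and -1.32) below 0 in both genotypes, while the endothelial median is 3.83 in wild types and 0.08 in mutants.

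Endothelial, erythroid, blood progenitor and cardiac muscle lists had few or no genes called in both genotypes. Of 18 endothelial identity genes, 18 rose in wild types (median 3.83) and 1, Plvap, in mutants (median 0.08), and the difference between genotypes passed the test for 15. The fit over both genotypes called 9 of them, but 1 to 3 after any single wild-type array was left out and 2 with the replicate block. Egfl7, a secreted endothelial factor, was at 11.69 to 12.08 in wild-type positive cells and at 8.97 to 9.71 on all other arrays; its mutant difference was 0.36 ± 0.19 (adjusted p = 0.425). Of 13 primitive erythroid genes, 0 were called over both genotypes, 10 rose in wild types and 0 in mutants, and the difference passed the test for 7. Hemgn, a nuclear protein of blood progenitors, rose 46.1-fold in wild types and differed by -0.22 ± 0.28 in mutants.

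Among 16 haematopoietic regulators and progenitor markers, Cd34 was the member called in both, with the limits given above, and the replicate block called 3 higher and 1 lower. Lmo2, a cofactor of the blood and endothelial programme, rose 7.37-fold in wild types, and its mutant difference was 0.77 ± 0.25 (adjusted p = 0.124). In the opposite arrangement, 15 of 18 cardiac muscle products rose in mutants (median 1.73) and 0 in wild types (median -0.18). With the block 11 of the 18 differed between genotypes. Tnni3, cardiac troponin I, differed by 0.48 ± 0.34 in wild types and by 1.73 ± 0.34 in mutants. The difference between genotypes passed the test for 7 of the 18, and for 2 to 4 without wild-type negative array 1, 2 or 3, mutant positive array 1 or 2, or mutant negative array 2 or 3.

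Signalling genes were read by pathway. Of 22 Wnt pathway genes, Wnt5b, Wnt8b, Fzd3, Sfrp2 and Rspo3 were lower in both genotypes and 0 were higher. This count was 2 or 3 without wild-type positive array 3, wild-type negative array 1 or 2, mutant positive array 1 or 2, or any mutant negative array. Sfrp2, a secreted Wnt antagonist, lay between 8.83 and 9.26 on the positive arrays and between 10.11 and 10.51 on the negative arrays, and was 2.31-fold and 2.42-fold lower. Fzd3, a Wnt receptor of the neural tube, was 2.27-fold and 1.74-fold lower, and its mutant call was lost without mutant positive array 1 or 2 or any mutant negative array (adjusted p 0.057 to 0.0851).

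Of 16 Notch pathway genes, 4 fell in both genotypes and 0 rose: the ligands Dll1 and Dll3, the glycosyltransferase Lfng and the target Hes5. The list as a whole was split. Over both genotypes 6 of the 16 were lower and 2 higher, and the medians were -0.07 in wild types and -0.22 in mutants. In wild types 4 were lower and 3 higher, and in mutants 5 were lower and 1 higher. Dll3 was 2.55-fold and 4.33-fold lower. Of 17 FGF and ERK feedback genes, the 3 called in both were the ligands Fgf3, Fgf15 and Fgf18, all lower, and 1 was called without both wild-type arrays numbered 1. Fgf15, a ligand of the neural tube, was 3.20-fold and 5.04-fold lower, and Fgf18 2.55-fold and 2.80-fold lower. Fgf3 was 1.63-fold lower in wild types (adjusted p = 0.0492), a call lost without any of 9 single arrays: wild-type positive 2 or 3, wild-type negative 1 or 2, mutant positive 1 or 2, or any mutant negative array. FGF receptors and the feedback genes Spry2, Spry4 and Dusp6 were not called over both genotypes.

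BMP and TGF-beta genes called in both genotypes were higher in positive cells. Of 20, the ligand gene Bmp2 and the inhibitory gene Smad6 rose in both genotypes and 0 fell, with medians of 0.29 and 0.32. The count was 1 without wild-type positive array 3 or negative array 1 or 3, and 0 without both wild-type arrays numbered 1. Smad6 was at 8.59, 8.69 and 9.06 in wild-type positive, 7.39, 8.30 and 7.92 in wild-type negative, 9.07, 9.39 and 9.53 in mutant positive and 7.51, 7.63 and 7.61 in mutant negative cells. It rose 1.88-fold and 3.36-fold, and the call in wild types ended on leaving out positive array 3 or negative array 1 or 3 (adjusted p 0.0569 to 0.0771). Bmp6 differed by 0.77 ± 0.20 in wild types and by 0.64 ± 0.20 in mutants, where it missed the threshold (adjusted p = 0.112).

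Stress and proliferation genes were read as a check on the sort. Of 18 dissociation stress and immediate early genes, Egr1 and Klf6 rose and Egr2 fell in both genotypes. Over both genotypes 8 of the 18 were higher and 1 lower, against 4.07% and 4.17% of all genes. In wild types 8 were higher and 1 lower (median 0.8), and in mutants 3 were higher and 1 lower (median 0.5). The mean level of this list was 8.91 to 9.12 in wild-type positive against 8.35 to 8.50 in wild-type negative cells, and 8.69 to 8.76 against 8.18 to 8.47 in mutants. Its part in the other results was not tested. Egr1, an immediate early factor, rose 3.11-fold and 2.28-fold. Egr2, which also marks hindbrain segments and crest, was 6.55-fold and 6.34-fold lower, with positive arrays between 5.95 and 8.02 and negative arrays between 8.53 and 9.83, and its wild-type call ended without both wild-type arrays numbered 1 (-2.13, adjusted p = 0.0572). The count of stress genes higher in both was 0 without wild-type negative array 2 and 1 without wild-type positive array 1, any mutant positive array or mutant negative array 3.

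None of 17 cell cycle genes and none of 8 ribosomal protein genes was called in both genotypes by limma at the adjusted threshold. Over both genotypes Ccne1, cyclin E1, was lower by -0.35 ± 0.07 (adjusted p = 0.0098), and Rps14 differed by -0.03 ± 0.06. Among 9 trophoblast genes, Tfap2c and Krt7 were lower in both genotypes, and Krt7 is also on the epithelial list. Plac1, a placental gene, went the other way: its positive arrays lay between 9.27 and 12.17 and its negative arrays between 7.75 and 8.64 (2.08 ± 0.39 over both, adjusted p = 0.00631). Its wild-type difference of 1.91 ± 0.56 missed the threshold (adjusted p = 0.064). The trophoblast markers Elf5 and Tpbpa lay at 5.52 to 6.25 and 4.61 to 4.93 on all 12 arrays. A further trophoblast marker, Ascl2, lay at 6.61 to 7.35, above the 25th percentile of all values (5.65), and was not called over both genotypes. Erythroid Hbb-y lay at 14.47 to 14.84 in wild-type positive cells, and it was also high on 3 negative arrays: wild-type 1 and 3 (10.80 and 11.94) and mutant 2 (11.55).

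The sizes of the shared differences were set side by side as a description. The median difference of the 171 shared rises was 1.18 in wild types and 1.21 in mutants, and that of the 216 shared falls was -1.17 and -1.23. For 88 of the rises and 129 of the falls, the 95% interval of the difference between genotypes lay within 2-fold either way. Over all genes that difference passed the test for 469 (2.58%), 177 above 0 (0.973%) and 292 below (1.61%), and the 177 were 378 with the replicate block. It passed for 20 of the 171 rises (11.7%), 17 of them larger in wild types and 3 larger in mutants, and for 1 of the 216 falls (0.463%). Because a gene called in both genotypes had to differ from 0 in each, the choice itself brings the sizes together, and these medians and shares support no statement on the set. Over all 18193 genes the differences in the 2 genotypes correlated at 0.42 (Pearson, across genes, which are not independent and share an estimate of the spread).

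Among shared genes with a difference of at least 2 on the log2 scale, the closest in size between genotypes were Lama4, Cavin2 and Gem for the rises and Spint2, Shh and Egr2 for the falls. Gem, a small GTPase, lay between 6.85 and 8.17 on the positive arrays and between 4.78 and 5.96 on the negative arrays, and rose 5.28-fold and 3.65-fold. Cavin2, a caveola component, lay between 7.70 and 9.53 against 5.60 to 6.87 and rose 4.21-fold and 5.32-fold. Its call in wild types ended without wild-type positive array 1 or 2 or negative array 1 or 3 (adjusted p 0.0542 to 0.118), and its call in mutants without mutant positive array 1 or 2 or negative array 3 (0.0627 to 0.084). With all probe sets averaged both ended (0.123 and 0.0519), and without both wild-type arrays numbered 1 the wild-type difference was 1.39 (0.285). The 19 genes called in opposite directions were higher in wild types and lower in mutants in 15 cases and the reverse in 4. The 4, named after their values were seen, were Pdgfra, Prrx1, Prkg1 and Pth1r. Pdgfra, a receptor of paraxial and lateral mesoderm, differed by -1.18 in wild types and by 0.76 in mutants, and Prrx1, a mesenchymal homeobox factor, by -1.07 and 1.16.

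Promoter letters were counted in the shared sets and in all genes. Promoter windows were matched for 123 of the shared rises, 156 of the shared falls and 14452 genes in all. GGAA, the ETS core, was present on either strand in 94.3% of the rises, 94.2% of the falls and 95.5% of all windows. GATAA, the GATA core, was present in 20.3%, 10.9% and 19.1%, the E-box CANNTG in 69.9%, 70.5% and 67.0%, and ACAAT, part of the Sox site, in 15.4%, 21.8% and 23.8%. The 4 motifs were counted separately and their matches can overlap, and a match is a run of letters and no more. Median GC content was 63.7% in the rises, 62.7% in the falls and 58.7% in all windows. The windows printed above for Kdr and Tek hold a core that nearly all promoters hold.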

How the data were processed

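Expression was measured on 12 one-colour oligonucleotide arrays. The authors deposited log2 expression values from RMA, per the submitters' processing notes, and RMA's settings were not given in the sources used here. Of 45101 probe sets, 64 were controls, 34945 had 1 gene symbol, 932 had several and 9160 were not listed in the platform annotation. For each of 18193 genes the brightest probe set by its mean over all 12 arrays was kept, and dim probe sets were not filtered. Precision is limited by having 3 arrays per group.

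Tests used limma 3.58.1 in R 4.3.3, two-sided, with Benjamini-Hochberg adjustment over all genes and an adjusted p under 0.05. The fit over both genotypes had genotype as an additive term; a fit of the 4 groups gave the difference in wild types, in mutants and between them. A gene was shared if called with the same sign in both genotypes. The scripts were tested on simulated data.

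Replicate numbers were checked for pairing: deviations of same-numbered positive and negative arrays from their group means correlated at 0.19, 0.102 and 0.202 in wild types and at 0.554, 0.403 and 0.413 in mutants, against -0.315 to 0.043 for other numbers. Deviations within a group cancel for each gene, so higher same-number values force the other-number values lower. The other-number range is therefore no independent baseline. That the numbers pair arrays within a genotype is a reading of the data and not of the labels, and it is weaker in wild types.

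Members and gene lists were chosen with earlier results of these data known. Named genes were the 6 markers and Etv2; the 12 largest rises and 12 largest falls by the difference over both genotypes, among shared genes whose 6 positive and 6 negative arrays do not overlap; up to 3 genes per list with the smallest unadjusted p over both genotypes; and 3 rises and 3 falls of at least 2 log2 with the smallest difference between genotypes. Clone-type names were left out. Other list members called in both genotypes, list members named as not called, and genes at the edge of the threshold were named after their values were seen. Alternatives were a replicate block, no genotype term, other scalings, filters, probe set rules and thresholds, and leaving out arrays; leaving out both mutant arrays numbered 1 was added after seeing the data. Promoter windows came from RefSeq on GRCm38.p6.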

Additional observations from a re-analysis of the deposited data

Results flagged for a closer look

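For 13 named genes the sort difference itself differed between genotypes by the interaction test of limma at an adjusted p under 0.05 (mutant minus wild-type difference, log2). It was smaller in mutants for 12: Hemgn by -5.74, Cd34 by -3.65, Tmem204 and Plxnd1 by -3.38 each, Etv2 by -3.36, Tnfaip2 by -3.32, Plvap by -3.16, Tek by -2.42, Egfl7 by -2.25, Lmo2 by -2.11, Ppp1r13b by -1.94 and Cebpd by -1.42. It was larger in mutants for Pitx1, by 1.49. Of these, Tek, Tmem204, Tnfaip2, Plvap, Cebpd, Cd34, Plxnd1, Ppp1r13b and Pitx1 still rose in the mutants. Groups of 3 arrays were too small for a test of outlying arrays.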

How the results depend on the processing

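Of 61 named genes called in both genotypes, 39 kept every call under all 22 settings at the 0.05 threshold, and of 75 called over both, 65 did. The calls over both genotypes, 740 higher and 758 lower, were 393 and 472 without both wild-type arrays numbered 1, 316 and 366 at an adjusted p under 0.01, and 262 and 229 with a minimum of 2-fold; all of these again had the same sign in both genotypes, unlike the 1100 and 912 of the 4-group fit (946 and 886) and 1 of 658 higher without mutant positive replicate 1. The 171 and 216 called in both were 301 and 325 with the replicate block, 99 and 120 without both wild-type arrays numbered 1, 81 and 113 at 0.01, and 90 and 113 at 2-fold. The 19 called in opposite directions were 44 with the block, 4 at 0.01, 5 at 2-fold and 12 to 22 without single arrays. Of wild-type calls, 843 higher and 656 lower, 461 and 299 were found without both wild-type arrays numbered 1, 522 and 274 at 0.01, and 474 and 275 at 2-fold; the lower calls were 1041 with the block and 405 to 642 without single arrays. Of mutant calls, 558 higher and 417 lower, 271 and 192 were found at 0.01 and 329 and 214 at 2-fold; the higher calls were 872 with the block, 350 without both mutant arrays numbered 1 and 368 to 582 without single arrays, and the lower calls 257 to 420. Differences between genotypes (mutant minus wild-type difference), 177 above 0 and 292 below 0, were 41 and 173 at 0.01. Their sign does not say in which genotype the sort difference was larger in size. Those above 0 were 378 with the block, 86 without both mutant arrays numbered 1 and 82 to 196 without single arrays. Counted over probe sets without collapsing to genes, 591 and not 370 were higher without overlap. The replicate block removed the calls over both genotypes of Egfl7 (adjusted p = 0.073), Tnni3 (0.0787), Acta2 (0.0695) and Mcm6 (0.0737) and no other call of a named gene. The sign reversed for Rps6 (-0.10), a gene not called, which ranged from -0.24 to 0.09 without single arrays, above 0 without mutant positive replicate 3 (0.09) or mutant negative replicate 1 (0.03). Averaging all probe sets moved 18 named genes called over both by over 1.5 times, with 17 still called, among them Pax6 (-0.73 in place of -2.60), Tnfaip2 (1.16, 3.30) and Sox1 (-1.86, -3.66). The cause was not tested for these changes, other than that fewer arrays or a stricter threshold leave fewer calls. Folds against dim values are uncertain and may be understated: all 6 negative arrays of Tmem204 and 5 of the 6 positive arrays of Cldn9 lie below the 25th percentile of all values (5.65).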
